A study of Bos taurus with 8 samples.

Results

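The loci of this report are the genes with an Ensembl transcript identifier that lie wholly inside 2 windows of the cattle genome (UMD3.1), the trefoil factor window on chromosome 1 and the gastrokine window on chromosome 11. They number 5 among 24886 loci with an identifier, 2 in the trefoil window and 3 in the gastrokine window. The windows were chosen because 3 of these loci, ENSBTAT00000043564, ENSBTAT00000065109 and ENSBTAT00000022857, peaked in abomasum, and the other 2 were found by position alone. Since abomasum levels chose the windows, the levels below describe the loci and no test supports them.

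Total RNA of 8 cattle tissues, for which no treatment is stated, was sequenced as a single library each. The organs of the digestive tract were abomasum, rumen and ileum, the reproductive organs were whole testes and uterus (intercaruncular), and frontal cortex, mammary gland (parenchyma) and nucleated blood cells completed the set. The tissues were taken from related Hereford cattle. For the methylation libraries of the same tissues, the study lists abomasum, ileum, frontal cortex and mammary gland as juvenile and female, uterus and blood cells as adult and female, testes as adult and rumen as a male fetus. The sources used here do not say which animal gave each RNA library, so tissue and animal cannot be told apart. With 1 library per tissue there was no replicate check, no test between tissues was run and the spread between animals is unknown. The level is given as FPKM, a fragment number divided by transcript length and by the mapped fragments of the library, so levels of different genes are compared per length.

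Trefoil factors are small secreted peptides with a compact fold held by disulfide bonds, and mucus-producing cells release them together with mucins to protect and repair the epithelium. TFF1 is known from the surface mucous cells of the stomach, TFF2 from its mucous neck and gland cells, and TFF3 mainly from the goblet cells of the intestine. Gastrokines are secreted proteins with a BRICHOS domain that are made by the surface mucous cells of the stomach. The abomasum is the glandular stomach of ruminants, whereas the rumen is a forestomach lined by a stratified squamous epithelium without glands.

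The deposited table does not pair its identifiers with gene symbols, and 0 of 26547 identifiers matched the RefSeq gene table (assembly ARS-UCD2.0). In that table the protein-coding genes ABCG1, TFF3, TFF2, TFF1 and TMPRSS3 follow each other on chromosome 1, and LOC509961, GKN2, GKN1 and ANTXR1 follow each other on chromosome 11. The span of ENSBTAT00000043564 is 3267 bases, the same as that of TFF2 in RefSeq, which is the only protein-coding gene of chromosome 1 within 1 base of it (3 such genes in the genome). For the remaining 4 loci no RefSeq trefoil or gastrokine gene was within 1 base of the span. ENSBTAT00000065109 differed from TFF1 by 1305 bases, and the gastrokine loci differed from GKN2, the nearest in length, by 233 to 3512 bases. The 5 loci are therefore named by identifier, and a match in span does not establish which gene a locus is.

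All 5 loci reached their highest level in abomasum, as did 9.16% of the 17484 loci that passed an FPKM of 1 somewhere, and 4 of them stood at nearly the same, very high level there. ENSBTAT00000043564 had an FPKM of 22254 in abomasum, ENSBTAT00000017203 of 22248, ENSBTAT00000022857 of 21677 and ENSBTAT00000065109 of 20994. The highest of these 4 levels was 1.06 times the lowest, although the loci lie on 2 chromosomes. ENSBTAT00000055297 was the exception, with an FPKM of 199.8 in abomasum, and the lowest of the 4 others exceeded it 105 times. In frontal cortex, uterus, mammary gland and rumen each of the 5 loci was listed at 0.

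The depth of the libraries set how low a level could be seen. Recovered from very short loci, the scaled depth was 6082000 reads in mammary gland and 15610000 in rumen, with the other libraries between these, and 13442000 in abomasum. On a transcript of 1000 bases a count of 0 allows up to 3 reads, or an FPKM of 0.264 in rumen to 0.679 in mammary gland. On a transcript of 600 bases the same limit was 0.537 to 1.38. Transcript lengths are not part of the table, so read numbers at the 5 loci are approximate, and their intervals cover counting error only.

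**Figure D1:**
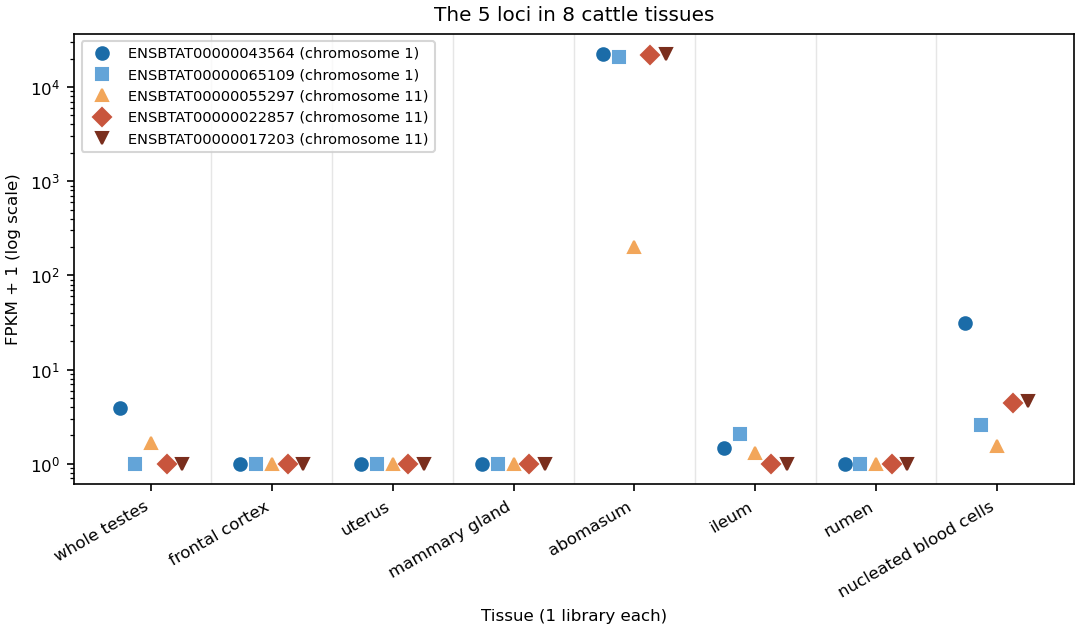
FPKM + 1 on a log scale (y axis) of the 5 loci in the 8 tissues (x axis), with 1 point per locus and library and no error bars because each tissue had 1 library. In abomasum 4 loci sit between 20994 and 22254 FPKM and ENSBTAT00000055297 at 199.8, while the highest point in any other tissue is 30.6, in nucleated blood cells.

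In the trefoil window, ENSBTAT00000043564 lies on chromosome 1 from 144176745 to 144180011. Its FPKM was 22254 in abomasum, 30.6 in nucleated blood cells, 2.96 in whole testes, 0.476 in ileum and 0 in the 4 remaining libraries. Abomasum exceeded blood cells 727 times, with a 95% Poisson interval on the blood reads of 613 to 869 at a transcript length of 600 bases. At that length the level in blood cells corresponded to about 132 reads (interval 111 to 157), the level in testes to about 10.96 reads (5.46 to 19.6) and the level in ileum to about 1.28 reads (0.0648 to 6.05). Blood cells stood above testes beyond these counting intervals, whereas the intervals of testes and ileum overlapped. At 600 bases 1 FPKM stood for 3.71 reads in testes, 2.69 in ileum and 4.32 in blood cells, so intervals on reads compare levels only roughly. At a transcript length of 1000 bases the intervals of testes (14.0 to 33.6 reads) and ileum (0.455 to 8.16) did not overlap, so whether they overlap depends on the unknown length.

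The second trefoil locus, ENSBTAT00000065109, spans 5767 bases from 144191000 to 144196766, and 10988 bases separate it from the first. Its FPKM was 20994 in abomasum, 1.61 in nucleated blood cells and 1.09 in ileum, and it was listed at 0 in the 5 other libraries, testes included. The abomasum level was 13041 times that of blood cells (interval 6318 to 32537 at 600 bases). Blood cells and ileum, at about 6.96 reads (2.79 to 14.4) and 2.94 reads (0.595 to 8.68), could not be set apart at this depth. The 2 trefoil loci thus had a ratio of 1.06 in abomasum, but the first exceeded the second 19.0 times in blood cells.

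In the gastrokine window, ENSBTAT00000022857 lies on chromosome 11 from 67257758 to 67269135 and ENSBTAT00000017203 from 67283485 to 67291738, with 14349 bases between them. ENSBTAT00000022857 had an FPKM of 21677 in abomasum and 3.39 in nucleated blood cells, and was listed at 0 in the 6 other libraries, ileum and testes included. ENSBTAT00000017203 had an FPKM of 22248 in abomasum and 3.62 in nucleated blood cells, and was listed at 0 in the same 6 libraries. Abomasum exceeded blood cells 6386 times (interval 3851 to 11492 at 600 bases) at the former and 6141 times (3763 to 10818) at the latter. The second of these loci was 1.03 times the first in abomasum and 1.07 times the first in blood cells. The latter ratio rests on about 14.7 (8.16 to 24.3) and 15.7 (8.89 to 25.6) reads at 600 bases, and a difference between the ratios was not tested.

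The remaining gastrokine locus, ENSBTAT00000055297, spans 7633 bases from 67246030 to 67253662 and lies 4095 bases from ENSBTAT00000022857. Its FPKM was 199.8 in abomasum, 0.659 in whole testes, 0.539 in nucleated blood cells and 0.293 in ileum, and 0 in the 4 remaining libraries. The levels in testes, blood cells and ileum rested on about 2.44 (0.394 to 7.92), 2.33 (0.353 to 7.74) and 0.790 (0.00858 to 5.20) reads at 600 bases. Their intervals overlapped, so the order of these 3 tissues is not set at this depth. Its abomasum level was lower than that of its neighbours ENSBTAT00000022857 and ENSBTAT00000017203 by factors of 109 and 111.

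**Figure D2:**
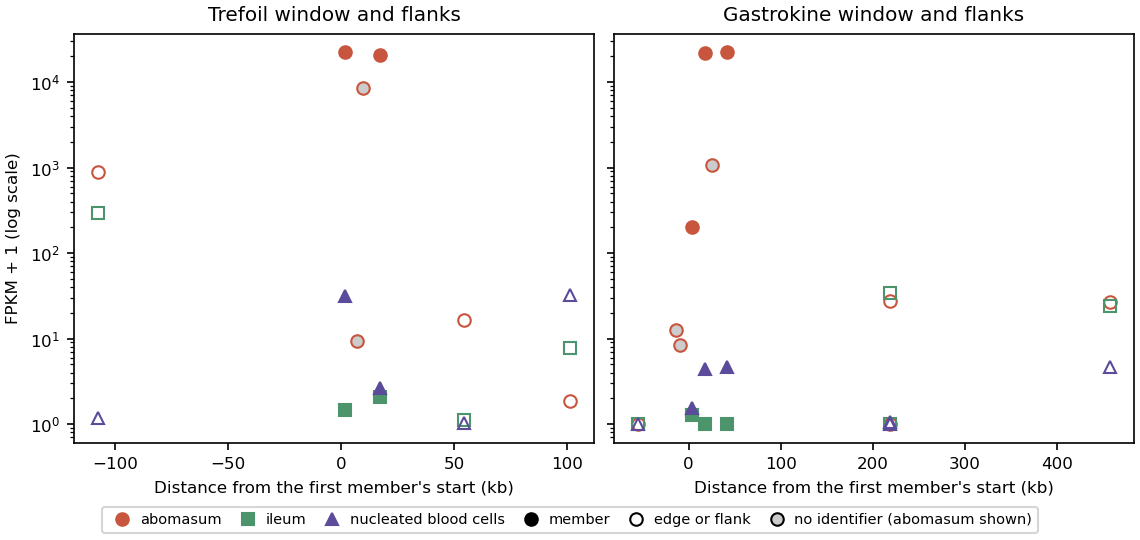
FPKM + 1 on a log scale (y axis) against the distance in kilobases from the first member's start (x axis) in each window, for abomasum (circles), ileum (squares) and nucleated blood cells (triangles), 1 library each. Filled symbols are the members, open symbols are loci at the edge or outside the window and grey circles are loci without an identifier. The 4 abomasum points at 20994 to 22254 are members, and the nearest locus left of the trefoil window reaches 878.

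Taken over all nuclear loci with an identifier (24884), the 4 highest loci of the abomasum library were 4 of the 5 members. The fifth locus of the library had an FPKM of 16344, and the lowest of the 4 was 1.28 times as high. ENSBTAT00000055297 held rank 397, still above the median of 11.7 FPKM over the 12683 nuclear loci at an FPKM of at least 1 in abomasum. Together the 5 loci took 12.4% of the summed FPKM of nuclear loci in abomasum, 0.00560% in blood cells, 0.000584% in testes and 0.000281% in ileum. Of the summed FPKM of the 5 loci over all 8 libraries, 99.95% fell in abomasum and 0.0518% in the other 7. In other libraries an FPKM of at least 20000 was reached by 4 nuclear loci in rumen and 1 in blood cells, and by 0 in the 5 remaining libraries. In bulk tissue, fewer mucus-producing cells and less RNA per cell cannot be told apart.

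A locus was called enriched in abomasum where its FPKM there reached 1 or more and its FPKM + 1 exceeded that of the next tissue by a factor of 5 or more. All 5 loci met this rule, where 0.386% of the 24886 loci with an identifier did so (96 loci). The windows were chosen from this same contrast, so nothing is read from that count. The median log2 difference between abomasum and the next tissue, on the FPKM + 1 scale, was 12.23 over the 5 loci, 3.81 over the 96 enriched loci and -1.53 over the 17484 loci that reached an FPKM of 1 in some tissue. Ranked by that difference among the 96 loci, ENSBTAT00000065109 was the first (12.97), ENSBTAT00000022857 the second (12.27) and ENSBTAT00000017203 the third (12.23). ENSBTAT00000043564 held rank 10 (9.46), with its level of 30.6 in blood cells as the next tissue, and ENSBTAT00000055297 rank 22 (6.92). These differences depend on the pseudocount and on blood cells: with a pseudocount of 0.01 that of ENSBTAT00000055297 was 8.22, and without blood cells that of ENSBTAT00000043564 was 12.46. The tau index of tissue specificity (0 for a uniform level, 1 for a single tissue) was 0.926 at ENSBTAT00000043564 and 0.968 to 0.979 at the 4 others.

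**Figure D3:**
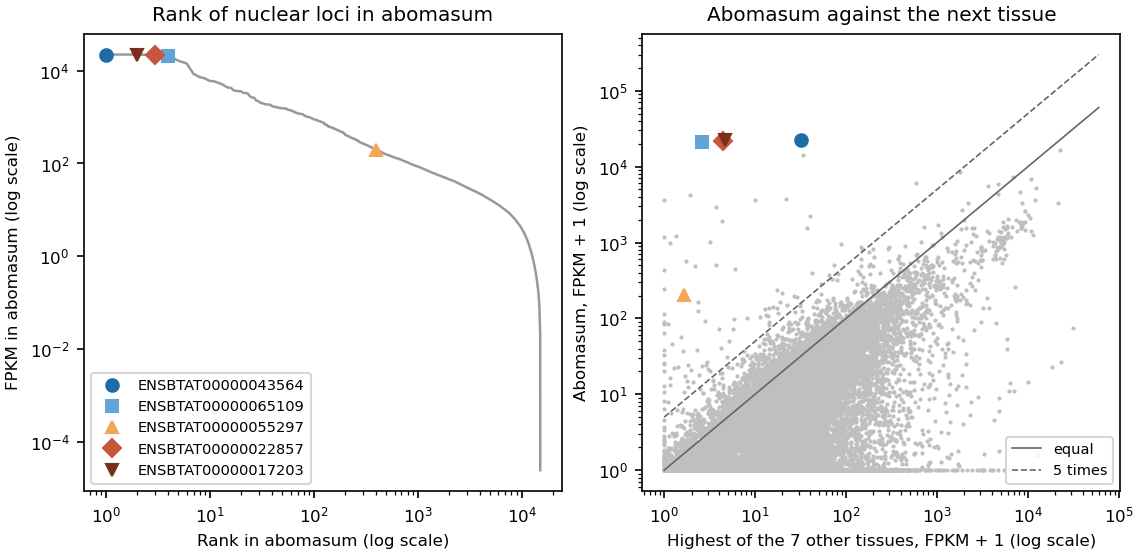
Left, FPKM in abomasum against rank for nuclear loci with an identifier above 0, both on log scales. Right, abomasum against the highest of the 7 other tissues, both as FPKM + 1 on log scales, with 1 grey point per locus, a solid line at equality and a dashed line at 5 times. The members (coloured) hold ranks 1 to 4 and 397 on the left, and all 5 lie above the dashed line on the right.

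The 2 stomach compartments and the intestine were set side by side, because abomasum, rumen and ileum belong to the same digestive tract. In rumen the 5 loci were listed at 0, in the deepest of the 8 libraries. Of the 96 loci enriched in abomasum, 40 (41.7%) were above 0 in rumen, 44 (45.8%) in frontal cortex, 48 (50.0%) in mammary gland and 55 (57.3%) in uterus. In ileum the 2 gastrokine loci ENSBTAT00000022857 and ENSBTAT00000017203 were listed at 0, and the 3 other loci had an FPKM between 0.293 and 1.09. The summed FPKM of the trefoil loci was 43248 in abomasum and 1.57 in ileum, and that of the gastrokine loci was 44124 in abomasum and 0.293 in ileum. On the FPKM + 1 scale, abomasum was at least 5 times as high as rumen at 2.89% of all loci with an identifier and at least 5 times as high as ileum at 1.54%. All 5 members met both criteria, with the reservation given above.

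Nucleated blood cells were the only other library in which all 5 loci were above 0. At ENSBTAT00000055297 that level rested on about 2.33 reads at 600 bases and 4.73 at 1000 bases, near the limit of 3 reads that a listed 0 allows. Of the 96 loci enriched in abomasum, 52 (54.2%) were above 0 in blood cells, 61 (63.5%) in ileum and 53 (55.2%) in testes. Blood cells were the next tissue for 11 of the 96 (11.5%), and 4 of these 11 were members. For 1 of these members, ENSBTAT00000065109, blood cells and ileum could not be set apart, so its next tissue is not settled. As a percentage of the abomasum level, the level in blood cells was 0.138% (interval 0.115 to 0.163% at 600 bases) at ENSBTAT00000043564. It was 0.00767% (0.00307 to 0.0158%) at ENSBTAT00000065109, 0.0157% (0.00870 to 0.0260%) at ENSBTAT00000022857 and 0.0163% (0.00924 to 0.0266%) at ENSBTAT00000017203. The interval of ENSBTAT00000043564 did not overlap those of these 3 loci, which overlapped each other. ENSBTAT00000055297 stood at 0.270%, with a wide interval of 0.0408 to 0.896%. Across the 52 enriched loci above 0 in blood cells the median percentage was 0.0835%.

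**Figure D4:**
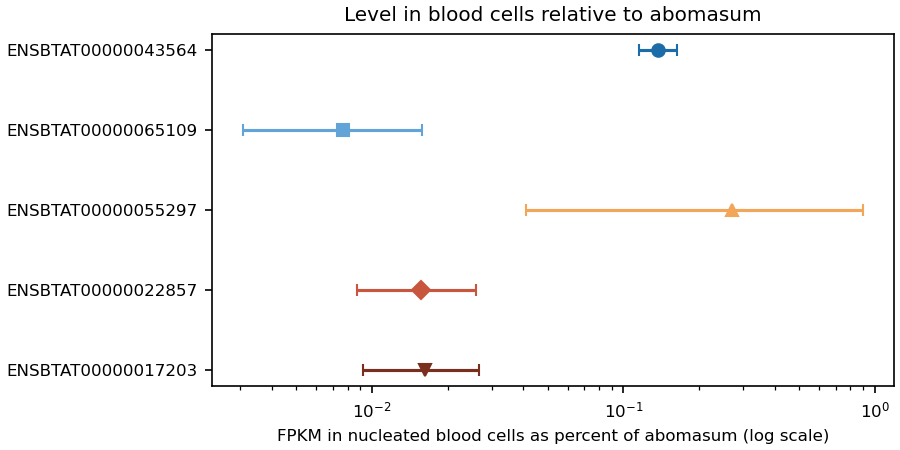
FPKM in nucleated blood cells as a percentage of the FPKM in abomasum (x axis, log scale) at each of the 5 loci (y axis). Bars are 95% Poisson intervals on the approximate blood reads at a transcript length of 600 bases, counting error only. ENSBTAT00000043564, at 0.138%, lies to the right of the 3 other highly expressed loci, which lie between 0.00767% and 0.0163%.

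Loci around the windows are given for contrast, and some of them also had their highest level in abomasum. The nearest locus with an identifier on the left of the trefoil window, ENSBTAT00000028349, lies from 144067291 to 144071071, separated by 105673 bases from ENSBTAT00000043564. It spans 3781 bases, 1 base from the 3782 of TFF3 in RefSeq, the only protein-coding gene of chromosome 1 within 1 base. Its FPKM was 878 in abomasum, 295 in ileum, 56.1 in mammary gland, 45.9 in uterus, 1.19 in whole testes and 0.163 in nucleated blood cells, and 0 in frontal cortex and rumen. Abomasum exceeded ileum 2.98 times there, and uterus and mammary gland, where both trefoil members were listed at 0, rested on about 167 reads (143 to 195) and 122 reads (102 to 146) at 600 bases. Over the right edge of the trefoil window reaches ENSBTAT00000028354 (144219261 to 144243229), with an FPKM of 15.4 in abomasum and at most 0.154 in the other tissues, so that it too met the rule for enrichment. The next locus to the right peaked in blood cells, at 31.4, against 0.880 in abomasum.

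On chromosome 11, 2 overlapping loci of 259550 bases reach over the right edge of the gastrokine window. One was listed at 0 in all 8 libraries. The other ranged from 0.0570 in blood cells to 35.3 in mammary gland, with 26.3 in abomasum, and so was not highest in abomasum. The nearest locus to the left was listed at 0 in 7 libraries and at 0.0937 in testes. The nearest to the right had an FPKM of 25.7 in abomasum, its highest level, and 23.3 in testes. Of the 11 pairs of adjacent loci in the genome that were both enriched in abomasum, 4 held at least 1 of the 5 members, and 2 pairs carried the same identifier at both loci. Some other pairs were different identifiers listed at the same position, so not all pairs are separate neighbours. The windows were chosen from abomasum levels, so nothing is read from the share held by members.

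The loci most like the leading member of each window were sought among 13222 loci outside the windows that reached an FPKM of 10 in some tissue, by Pearson r of log2(FPKM + 1) over the 8 tissues. These values are descriptions over 8 libraries, in which 1 high tissue dominates r. ENSBTAT00000020482 on chromosome 21 (55553442 to 55579813) was closest to ENSBTAT00000043564, with r = 0.974, although its FPKM was 37.2 in abomasum and 1.30 in blood cells. Closest to ENSBTAT00000017203 was ENSBTAT00000019305 on chromosome 29 (51371105 to 51461985), with r = 0.995, an FPKM of 4283 in abomasum and at most 0.922 in the other tissues. An r of at least 0.99 was reached by 0 loci for the former member and by 3 for the latter. With a pseudocount of 0.1 both named loci were replaced. The new locus for ENSBTAT00000043564, ENSBTAT00000009338 (r = 0.953), ran only from an FPKM of 3.61 in rumen to 11.8 in abomasum. A high r there does not mark a level confined to abomasum.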

How the data were processed

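RNA-Seq reads of 8 tissues (1 library each, single-end) were filtered for adapters, contamination and low quality by the authors, aligned to UMD3.1 with TopHat2 (version 2.0.13 per the labels) and compared with Cufflinks at default parameters. The deposited FPKM values are scaled between libraries by the authors' software. The deposited log2 fold changes, test statistics (a score), p-values and q-values hold the authors' own comparisons and were not used. An exact 0 can be a failed estimate, but 0 of the 26 comparisons that the table marks as holding too much data, and 0 marked as failed, were at the loci of the windows.

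Libraries were assigned to tissues by their labels. Loci count as members where they lie wholly inside a window. Positions are written 1-based. The kit does not mark strand, so antisense reads cannot be told apart, and levels of overlapping or near-identical genes are uncertain. The members and lists were chosen with earlier results of these data known. The named loci are all members, the most correlated locus for the leading member of each window, and the nearest loci on each side. ENSBTAT00000028354, which reaches over an edge, was added after its values were seen.

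Depth was recovered from unnamed loci of 88 to 130 bases, with a normal distribution of fragment lengths (mean 200, SD 80, lower limit 87 bases) and a tolerance of 0.03 reads; 97.7 to 100% of values came out whole. The model was set after inspection of the data. Simulated data used the same fragment model, so they checked the recovery of depth but not whether the model fits these libraries. The rule for enrichment was run on simulated loci raised by more than its factor, where its outcome was fixed in advance. Approximate reads equal FPKM times depth times effective length, at nominal transcript lengths of 600 and 1000 bases. Intervals are exact 95% Poisson intervals. Reads carry no molecular identifiers. The preset lists of gastric genes and cell type markers could not be matched to identifiers and were not used here, so the tissue labels were not checked against marker genes. No sequences of these loci are given here. Python 3.11.15, pandas 2.3.3 and scipy 1.17.1 were used.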

Additional observations from a re-analysis of the deposited data

Results flagged for a closer look

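Signal in abomasum above the floor of 3 reads was also found at 5 loci without an identifier inside the windows, which are not among the 5 members. They enter the alternative over all loci of the windows, and the 2 shortest also belong to the loci used to recover depth. Each was listed at 0 in the 7 other tissues. With no identifier and no signal elsewhere, these loci are listed because of their abomasum reads, so nothing is read from those zeros. In the trefoil window, a locus of 95 bases between the 2 members had an FPKM of 8572, which on so short a locus corresponds to about 9.99 reads, and a locus of 346 bases had an FPKM of 8.33, about 14.0 reads. In the gastrokine window, a locus of 111 bases lay 1793 bases from ENSBTAT00000022857 and had an FPKM of 1083, again about 9.99 reads. A locus of 6271 bases had an FPKM of 11.6 and a locus of 2517 bases an FPKM of 7.39, which correspond to at most about 869 and 211 reads if the whole span is transcript. The abomasum library held 519 loci without an identifier of 88 to 130 bases above 0, of which 156 reached the FPKM of the 95-base locus and 362 that of the 111-base locus. Whether these 5 loci belong to the transcripts of the neighbouring genes was not tested.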

How the results depend on the processing

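A count was called stable within a factor of 1.5. The 5 loci enriched in abomasum stayed 5 at a fold of 2 or 10, pseudocounts of 0.1 and 0.01, no filter or an FPKM of at least 5, 2 rescalings of the libraries and the omission of any 1 of the other tissues. With a smallest fold of 121 and a smallest abomasum FPKM of 199.8 none of these could lower the count, which therefore says nothing about stability. The 5 with their peak in abomasum stayed 5 under both rescalings. With all loci of the windows, also those without an identifier, both counts were 10, since the 5 added loci were above 0 in abomasum only. Such loci could only raise both counts, so nothing is read from that rise. Adding the loci over the window edges, chosen after seeing the data, left both within that margin and gave a share of summed FPKM in abomasum of 99.8%, and without blood cells this share was 99.99%. Of 55 alternative log2 differences against the next tissue 7 moved beyond the counting interval at a transcript length of 1000 bases. A lower pseudocount or the omission of the next tissue can only raise a difference, and the omission of another tissue leaves it as it is. Without blood cells the difference of ENSBTAT00000043564 rose from 9.46 to 12.46, that of ENSBTAT00000022857 from 12.27 to 14.40 and that of ENSBTAT00000017203 from 12.23 to 14.44. With pseudocounts of 0.1 and 0.01 the difference of ENSBTAT00000055297 rose from 6.92 to 8.04 and 8.22, and that of ENSBTAT00000065109 from 12.97 to 13.58 and 13.66. With a pseudocount of 0.1 another locus was the most correlated for both leading members. For ENSBTAT00000017203 it was ENSBTAT00000010897 (r = 0.985), listed at the same position as ENSBTAT00000019305. For ENSBTAT00000043564 it was ENSBTAT00000009338 (r = 0.953), whose levels were far more even across tissues than those of the member. Approximate reads depended on the transcript length: in abomasum ENSBTAT00000043564 had at most 842681 reads over its span, 217430 at 1000 bases and 107108 at 600 bases, and ENSBTAT00000022857 at most 2999900, 211794 and 104332. No paired analysis was possible because no tissue had a second library.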
